A study of Mus musculus with 12 samples.

Results

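The Prss genes are the numbered serine protease genes of the mouse, here every protein-coding gene whose symbol is Prss followed by a number. There were 38 of them among 37675 genes listed (22380 protein-coding), on 11 chromosomes, and their RNA was followed in whole testis through the first wave of spermatogenesis. Testes came from C57BL/6NHsd mice at postnatal day (PND) 7, 14, 17, 21 and 28, with 2 mice at each age and no treatment, and the ribosomal RNA-depleted total RNA of each was sequenced on the SOLiD 4 platform. Each PND 7 mouse was sequenced under 2 barcodes, which were joined into 1 value for the mouse. Levels are given as RPKM, read counts scaled by exon length and by the mapped reads of the library, always for mouse 1 before mouse 2, and the mouse number is only a name.

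Trypsin-like serine proteases cut proteins with a catalytic triad of a histidine, an aspartate and a serine, and most are made as inactive precursors. The family includes digestive trypsins and blood and mast cell enzymes, and also a large set made almost only by male germ cells, where several sit in the acrosome, the enzyme vesicle of the sperm head, or on the sperm surface. Some members have lost a residue of the triad and are thought to act without cutting. In the first wave, spermatogonia and Sertoli cells fill the young tubule, then spermatocytes appear, then round spermatids and last elongating spermatids.

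Several of the members expressed in the testis lacked the codon for the active-site serine. In an alignment of 36 members, 30 had a serine codon at the column of the active-site serine of Prss21 and 6 had another residue. All 6 belonged to the 20 aligned members that reached 5 RPKM or changed between ages, while the 16 other aligned members all had serine. The 27 bases around the column are shown first for the 6 members without serine and then for 6 members with it, since this is the part of the protein that the family is named for. Each is printed 5′ to 3′ on the coding strand from the mm9 transcripts of GENCODE M1, with the codon of the column in capitals.

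The codon stood for alanine in Prss37 (chr6:40465068-40465070), proline in Prss45 (chr9:110743355-110743357) and Prss54 (chr8:98083714-98083716), and threonine in Prss50 (chr9:110766791-110766793), Prss58 (chr6:40845502-40845504) and Prss35 (chr9:86649374-86649376), each time in the last coding exon. Prss35 has 1 coding exon in all.
Prss37: tttggggaggttGCTgtagctactgtc
Prss45: tgctatggagacCCCggggggccattg
Prss54: tgcctgggggaaCCAggaagccctatg
Prss50: tgctatgagataACTggcgagcccctg
Prss58: tgcaaggaagtcACGgctgccccagca
Prss35: gaggcaggctccACAggctcggggatc

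Among the members with serine, the codon was at chr17:24009768-24009770 in Prss21, chr1:34559475-34559477 in Prss39, chr9:110719599-110719601 in Prss44, chr9:110758510-110758512 in Prss46, chr14:64694623-64694625 in Prss55 and chr14:64732310-64732312 in Prss52.
Prss21: tgctttggtgacTCGggaggacccttg
Prss39: tgccgaggagacTCTgggggccccctg
Prss44: tgccagggagatTCTgggggccccctg
Prss46: tgtcaggacaccTCCggaagctctctg
Prss55: tgccagggtgacAGTgggggaccgctt
Prss52: tgccagggcgacAGTggaggagctctc

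Serine was written with a codon starting TC in 25 members and with AGC or AGT in 5, which were Prss12, Prss23 and all 3 genes of the chromosome 14 cluster, Prss51, Prss52 and Prss55. At the histidine column 35 of the 36 members had histidine. Prss54 was the exception, with serine there (chr8:98094922-98094924, against chr17:24005735-24005737 in Prss21), so it lacked both residues. In Prss51 the aligned histidine is residue 5 of the listed coding sequence, so its match to the active-site histidine is uncertain. The aspartate column was not examined.
Prss54: ctcagcaccgccTCCgctctccagcac
Prss21: cttacagctgccCACtgcttccaaaag

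Of the 38 genes, 29 lay in 7 clusters of members less than 500 kb apart and 9 lay alone (mm9 coordinates). The chromosome 9 cluster held 6 genes on 1 strand within 66.5 kb, and all 6 reached 5 RPKM. The chromosome 14 cluster (3 genes in 38.3 kb) and the chromosome 1 pair (62.5 kb) were also expressed in full. By contrast, 1 of 7 genes of the larger chromosome 17 cluster (Prss21) and none of the 3 genes of the smaller one reached that level. None of the 3 genes of the chromosome 7 cluster (Prss53, Prss8 and Prss36, in 60.9 kb) reached it either. On chromosome 6, Prss37 and Prss58 did and the 3 trypsin genes of the same cluster had no count. Neighbours differed in how alike they were. Within the chromosome 9 cluster, coding bases were 58.9% to 66.3% identical between pairs, and Prss39 and Prss40 shared 70.4%, while the 3 trypsin genes on chromosome 6 shared 88.7% to 96.4%.

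**Figure D1:**
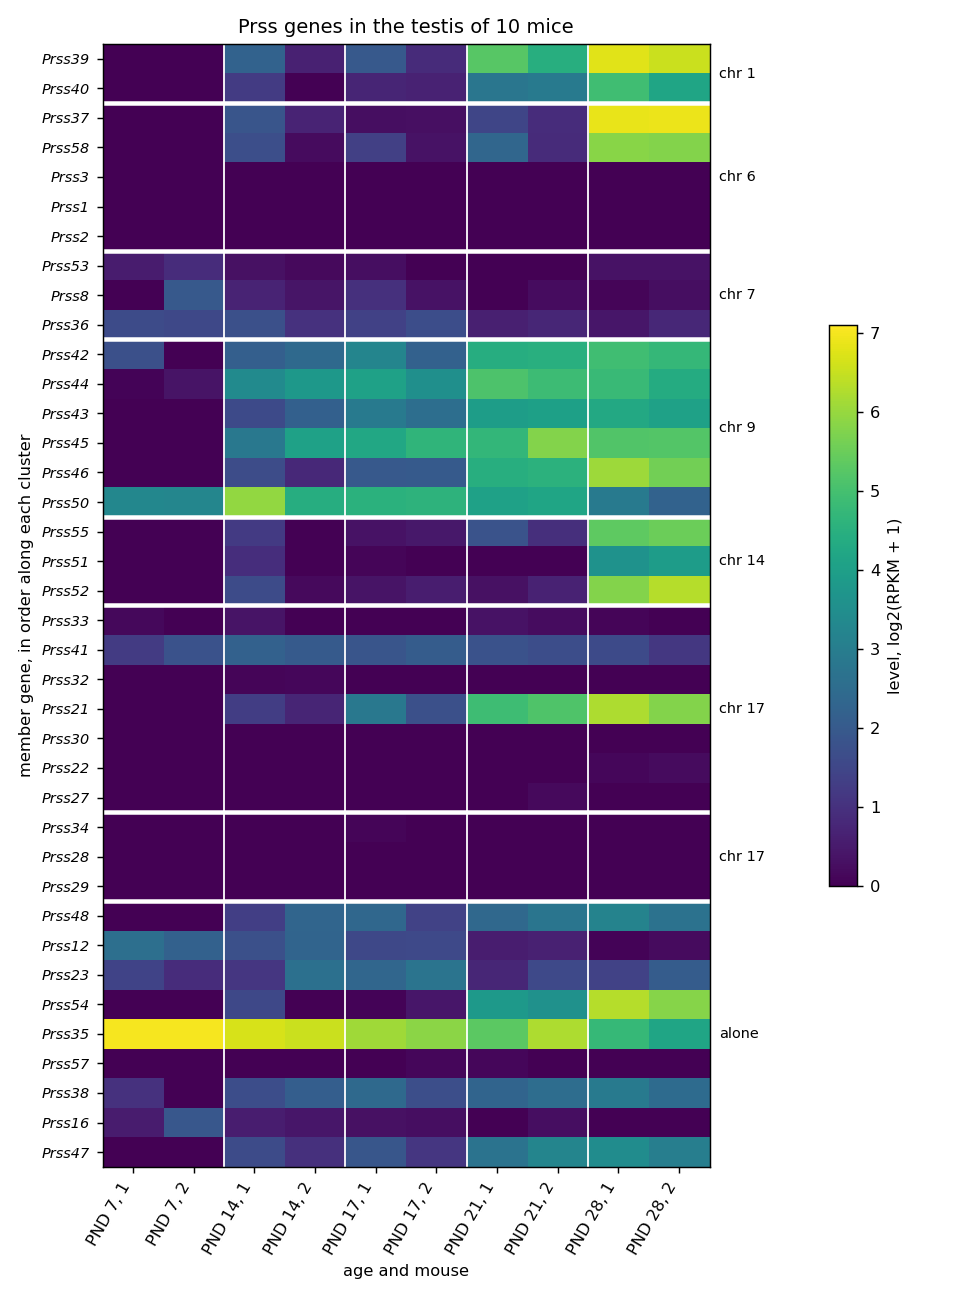
Level of each of the 38 Prss genes (rows, grouped by genomic cluster, white lines between clusters) in each of the 10 mice (columns, age and mouse number), in log2(RPKM + 1) by colour. Prss35 is brightest at PND 7 and most other expressed members are brightest at PND 28, while the trypsin genes on chromosome 6 stay at 0.

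Total counts per mouse ran from 3994026 to 13559548, with the largest in PND 17 mouse 1 and the smallest in PND 17 mouse 2. A count of 0 in the PND 7 mice therefore allows up to 0.311 and 0.426 CPM (counts scaled to the library total), for counting error only. Marker genes followed the labelled ages in part. Of the spermatocyte markers, 8 of 8 were called higher at PND 14 than at PND 7. Of the round spermatid markers, 9 of 9 were called higher at PND 21 than at PND 17. However, 7 of 9 round spermatid and 8 of 8 elongating spermatid markers were already called higher at PND 14 than at PND 7. Some libraries stood apart from their age. PND 14 mouse 1 held 8 elongating spermatid markers at a summed 509.0 RPKM, against 18.8 in PND 14 mouse 2, 20.9 and 21.0 at PND 17, and 9506 and 11930 at PND 28. PND 7 mouse 2 and PND 17 mouse 1 held epididymis markers at a summed 169.7 and 409.0 RPKM, against at most 5.51 in every other mouse. Counts of called members that change without one of these libraries are also given without it. In whole tissue, fewer cells of a type and less RNA per cell cannot be told apart.

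The summed level of the family was largest at PND 28. It was 151.2 and 150.5 RPKM at PND 7, 219.6 and 173.7 at PND 14, 176.5 and 150.8 at PND 17, 280.3 and 333.1 at PND 21, and 805.1 and 714.3 at PND 28. Its makeup differed between the first and the last age. Prss35 alone made up 84.6% and 83.8% of the sum at PND 7 and 3.24% and 2.40% at PND 28. The chromosome 9 cluster made up 7.34% and 5.94% at PND 7, 38.1% and 33.1% at PND 14, 41.7% and 46.0% at PND 17, 46.4% and 47.6% at PND 21, and 22.7% and 20.6% at PND 28. The chromosome 6 cluster went from a summed 5.89 and 1.69 RPKM at PND 21 to 171.4 and 172.2 at PND 28, and the chromosome 14 cluster from 2.76 and 1.54 to 104.6 and 137.6.

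**Figure D2:**
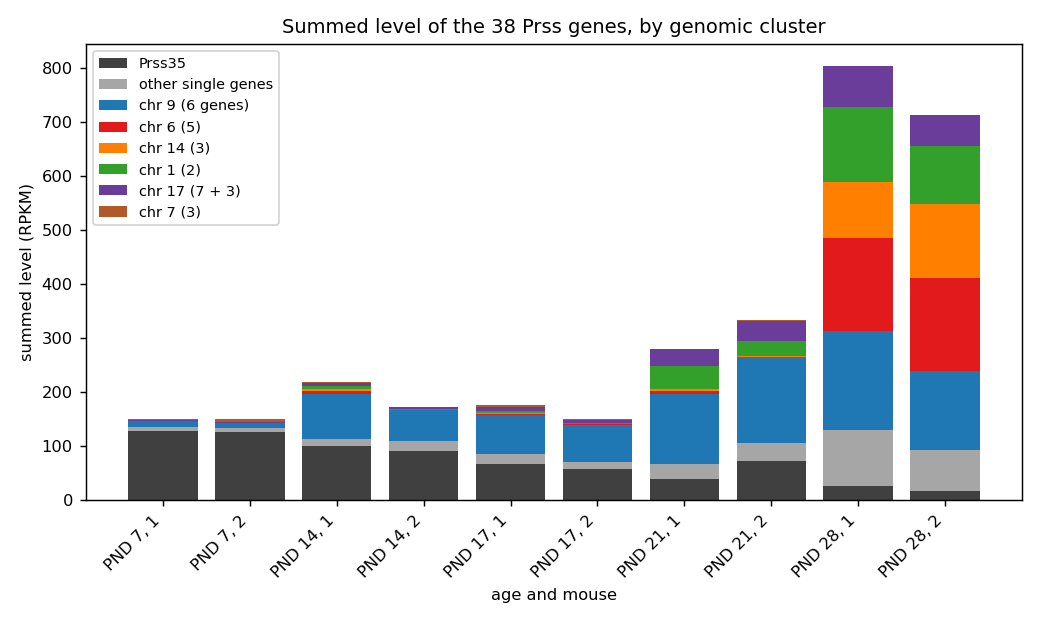
Summed level in RPKM of the 38 Prss genes in each mouse, stacked by genomic cluster with Prss35 and the other single genes apart. Prss35 fills most of the bar at PND 7, the chromosome 9 cluster the largest block at PND 21, and the bars at PND 28 reach 805.1 and 714.3 RPKM.

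Ages were compared in order, and PND 7 with PND 28, by edgeR's quasi-likelihood test on the counts of all 10 mice. A gene was called where its adjusted p was under 0.05 over the 16860 genes with enough counts and its fold change was at least 2. Of the 38 members, 24 had enough counts to be tested. A member can pass that filter through its high age alone, so the counts below are descriptions of the members and not a test of the family. A fold change against a group with no counts is given as a lower limit, computed against a floor of 3 counts over both mice.

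From PND 7 to PND 14, 11 of the 24 tested members were called higher (13.5% of all genes tested were) and none lower (5.43%). They were Prss21, Prss37, Prss39, Prss43, Prss44, Prss45, Prss46, Prss47, Prss48, Prss50 and Prss52. For lower levels edgeR gave 0 members at an unadjusted p under 0.05 and DESeq2 also called 0. Without PND 14 mouse 1, the library with spermatid markers, 7 were called higher, and Prss21, Prss39, Prss50 and Prss52 were lost. Without PND 7 mouse 2, a library with epididymis markers, 8 were called, and Prss21, Prss39 and Prss52 were lost. Without PND 14 mouse 2, 16 were called. Without PND 7 mouse 1, Prss8 and Prss16 were called lower.

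From PND 14 to PND 17, no member was called higher or lower by edgeR (0% of all genes tested were called in each direction), with 3 higher and 1 lower at an unadjusted p under 0.05. DESeq2 also called 0 members. From PND 17 to PND 21, 7 of the 24 tested members were called higher (9.29% of all genes tested) and none lower (1.05%), with 3 lower at an unadjusted p under 0.05 and 0 lower by DESeq2. They were Prss21, Prss39, Prss40, Prss43, Prss44, Prss46 and Prss54. The count was 3 without either PND 17 mouse (mouse 1 being a library with epididymis markers) and 4 without either PND 21 mouse, and Prss21 and Prss46 were called under each of these. Of all genes called in this step, 89.8% were higher, and 78.9% when counts were scaled by library totals alone.

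From PND 21 to PND 28, 8 of the 24 tested members were called higher (7.37% of all genes tested) and none lower (0.297%), with 3 lower at an unadjusted p under 0.05 and 1 lower (Prss35) by DESeq2. The 8 were Prss37, Prss39, Prss46, Prss51, Prss52, Prss54, Prss55 and Prss58. The count was 4 without PND 21 mouse 1, 2 without PND 21 mouse 2 and 5 without either PND 28 mouse, and Prss37 and Prss52 were called under each of these. Over the whole span, PND 7 to PND 28, 17 of the 24 tested members were called higher (32.2% of all genes tested) and 3 lower (23.4%). The higher count stayed at 17 without any 1 mouse. Of the 16 members called higher in any step between successive ages, Prss39 and Prss46 were called in 3 of the 4 steps. Their calls from PND 21 to PND 28 were each lost without any 1 of the 4 mice compared. The share of all genes called in as many steps was not counted, so these counts describe the members only. For the 14 members at 0 in both PND 7 mice that are described below, the level at PND 28 was from at least 44.0-fold (Prss48) to at least 894-fold (Prss37) higher.

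Among the genes known from the sperm head and surface, Prss39 and Prss40 encode testicular proteases of the acrosome and are neighbours on chromosome 1. Prss39 (ENSMUSG00000026125) had no count at PND 7 and measured 3.67 and 0.58 RPKM at PND 14, 2.99 and 0.83 at PND 17, 36.9 and 21.0 at PND 21, and 109 and 90.6 at PND 28. At PND 21 and again at PND 28, both mice lay above all mice of younger ages. It was called higher by 3.79 ± 0.62 (log2, SE; adjusted p = 0.00583, edgeR) from PND 17 to PND 21 and by 2.04 ± 0.52 (adjusted p = 0.0405) to PND 28. The first of these was lost without PND 17 mouse 2 and measured 5.18 without PND 17 mouse 1, and the second was lost without any 1 of the 4 mice compared. Prss40 had no count at PND 7 and measured 1.37 and 0 RPKM at PND 14, 0.65 and 0.61 at PND 17, 5.90 and 6.66 at PND 21, and 29.3 and 17.2 at PND 28. It followed the course of Prss39 at a lower level in each mouse with counts. Its step from PND 17 to PND 21 was 3.42 ± 0.82 (adjusted p = 0.0274, edgeR) and was lost without any 1 of those 4 mice, and 287 of its 2098 exon bases overlap Cfc1 on the other strand, which had no count in any mouse.

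Prss21 encodes testisin, which is anchored to the sperm membrane by a lipid tail. It had no count at PND 7 and measured 1.43 and 0.66 RPKM at PND 14, 6.19 and 2.35 at PND 17, 28.8 and 34.2 at PND 21, and 73.9 and 54.5 at PND 28. The mice of successive ages did not overlap at any step. From PND 17 to PND 21 it was 2.90 ± 0.43 higher on the log2 scale (adjusted p = 0.00451, edgeR), and 3.85 higher without PND 17 mouse 1. From PND 21 to PND 28 the difference of 1.24 ± 0.39 missed the threshold (adjusted p = 0.083). Its RNA was the only one of the 7 genes in its cluster to exceed 5 RPKM. Prss41, a neighbour also described from testis, stayed between 1.22 and 3.59 RPKM in all 10 mice and was not called in any comparison.

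Prss37 encodes a protein without protease activity that sperm need to reach the egg, and Prss55 encodes a membrane-anchored sperm protein with a similar role. Prss37 had no count at PND 7 and measured 2.67 and 0.64 RPKM at PND 14, 0.20 and 0.23 at PND 17, 1.80 and 0.87 at PND 21, and 115 and 118 at PND 28. Both PND 28 mice stood apart from all others, and no other member reached their level at that age. The difference from PND 21 was 6.73 ± 0.51 on the log2 scale, 104-fold (adjusted p = 0.000196, edgeR). Prss55 had no count at PND 7 and measured 1.30 and 0 RPKM at PND 14, 0.27 and 0.37 at PND 17, 2.52 and 0.93 at PND 21, and 39.4 and 44.5 at PND 28. Its step to PND 28 was 4.91 ± 0.73, 29.2-fold (adjusted p = 0.00335, edgeR), which was lost without PND 21 mouse 2 and measured 5.62 without PND 21 mouse 1.

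Prss51 and Prss52 adjoin Prss55 on chromosome 14, and Prss58 lies in the cluster of Prss37. Prss52 had no count at PND 7 and measured 2.09 and 0.14 RPKM at PND 14, 0.29 and 0.48 at PND 17, 0.24 and 0.61 at PND 21, and 54.1 and 78.9 at PND 28. Prss51 was at 0 in both PND 7 and both PND 21 mice, at 0.92 and 0 RPKM at PND 14, 0.06 and 0 at PND 17, and 11.2 and 14.3 at PND 28. Prss58 had no count at PND 7 and measured 2.25 and 0.15 RPKM at PND 14, 1.54 and 0.26 at PND 17, 4.09 and 0.82 at PND 21, and 56.5 and 54.4 at PND 28. In all 3, the PND 28 mice lay far above every younger mouse. From PND 21 to PND 28, edgeR gave 7.33 ± 0.78 (log2) for Prss52, 177-fold (adjusted p = 0.000916), and 4.85 ± 0.80 for Prss58, 27.5-fold (adjusted p = 0.00515). Without PND 21 mouse 2 Prss52 measured 8.34 and was still called, while Prss58 measured 4.07 and was not, and without PND 21 mouse 1 Prss58 measured 6.19. Prss51 was at least 63.0-fold higher (adjusted p = 0.00585, edgeR), a call lost without either PND 21 mouse and with DESeq2.

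Prss54, the member without the histidine and without the serine, moved 1 step earlier. It had no count at PND 7 and measured 1.91 and 0 RPKM at PND 14, 0.05 and 0.36 at PND 17, 13.0 and 11.1 at PND 21, and 78.8 and 54.8 at PND 28. Both PND 21 mice lay above all younger mice and below both PND 28 mice. It had 3 counts over both PND 17 mice and 172 over both PND 21 mice, a ratio of 107 with a 95% counting interval of 36.0 to 523 (adjusted p = 0.00549, edgeR). The step to PND 28 was 2.71 ± 0.63 on the log2 scale, 6.51-fold (adjusted p = 0.027). The first call was lost without PND 17 mouse 1, and the log2 difference ran from 5.12 to 7.66 over the left-out mice. The call at PND 28 was lost without any 1 of the 4 mice compared, with DESeq2 and with library totals.

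PND 14 mouse 1 stood out in these late genes and in the chromosome 1 pair. Prss37, Prss51, Prss52, Prss54, Prss55 and Prss58 were all higher in it than in PND 14 mouse 2 and in both PND 17 mice, as were Prss39 and Prss40. Its levels were 2.30% (Prss37), 3.10% (Prss55), 2.86% (Prss54), 3.14% (Prss52), 4.06% (Prss58) and 7.22% (Prss51) of the PND 28 mean, and 3.67% for Prss39 and 5.89% for Prss40. Summed over 8 elongating spermatid markers, the same share was 4.75%. Without this library, Prss37 was still called higher from PND 7 to PND 14, on 5 counts in PND 14 mouse 2. Prss52 was not, but its call was also lost without either PND 7 mouse. The part of this library in the calls of Prss37 and Prss52 was not tested.

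**Figure D3:**
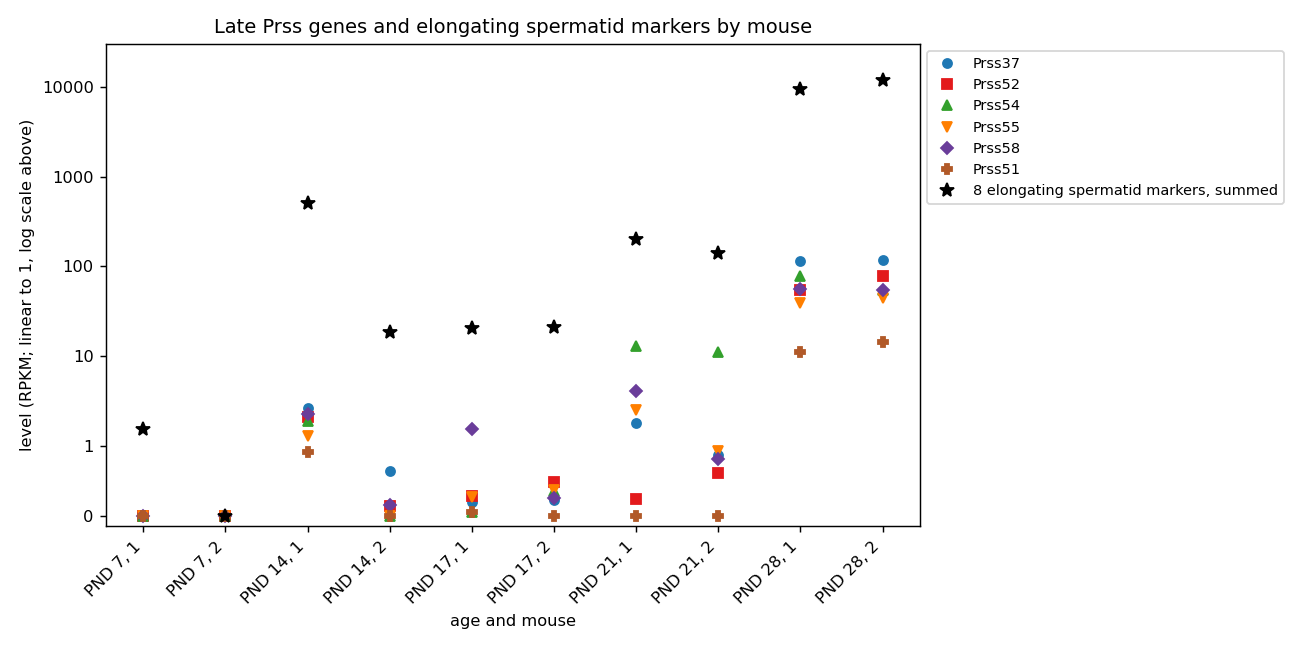
Level in RPKM of 6 late Prss genes (coloured symbols) and the summed level of 8 elongating spermatid markers (stars) in each of the 10 mice, on an axis that is linear up to 1 and logarithmic above. In PND 14 mouse 1 the stars reach 509.0 RPKM and all 6 genes lie above their values in PND 14 mouse 2 and at PND 17.

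In the chromosome 9 cluster the 6 neighbours had their highest mean RPKM at different ages. Prss42, Prss43 and Prss44 encode testis-specific serine proteases of germ cells, and Prss45 lacks the serine codon. Prss44 measured 0.04 and 0.30 RPKM at PND 7, 9.55 and 12.8 at PND 14, 15.6 and 10.7 at PND 17, 33.5 and 28.2 at PND 21, and 27.3 and 19.5 at PND 28. Prss45 had no count at PND 7 and measured 6.13 and 15.7 RPKM at PND 14, 18.3 and 24.1 at PND 17, 24.9 and 54.1 at PND 21, and 35.2 and 35.8 at PND 28. Both had their highest mean RPKM at PND 21, where the 2 mice lay above both PND 28 mice for Prss44 and on either side of them for Prss45. Neither was called from PND 21 to PND 28, with -0.162 ± 0.325 (log2, adjusted p = 0.806, edgeR) for Prss44 and 0.028 ± 0.489 (adjusted p = 0.98) for Prss45. On the counts as scaled for that test, Prss45 had its higher mean at PND 28 and the Prss44 mice of those ages overlapped. From PND 7 to PND 14, Prss44 was 6.05 ± 0.52 higher on the log2 scale, 63.8-fold (adjusted p = 2.92e-05, edgeR), with 5.22 to 7.45 when 1 PND 7 mouse was left out. Prss45 was at least 70.1-fold higher (adjusted p = 0.000568), or at least 37.1-fold by its lower PND 14 mouse, mouse 1. Both calls held without any 1 mouse.

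Prss43 had no count at PND 7 and measured 2.03 and 3.54 RPKM at PND 14, 6.43 and 4.91 at PND 17, 14.5 and 15.4 at PND 21, and 18.4 and 15.6 at PND 28. Prss42 measured 2.31 and 0 RPKM at PND 7, 3.42 and 4.41 at PND 14, 8.41 and 3.61 at PND 17, 20.5 and 21.3 at PND 21, and 29.3 and 25.5 at PND 28. Prss46 had no count at PND 7 and measured 2.13 and 0.75 RPKM at PND 14, 2.94 and 3.06 at PND 17, 21.0 and 22.6 at PND 21, and 65.9 and 46.9 at PND 28. The mice of successive ages did not overlap at any step for Prss43 or Prss46. Prss43 was at least 28.6-fold higher at PND 14 than at PND 7 (adjusted p = 0.000185, edgeR) and 1.51 ± 0.35 higher (log2) at PND 21 than at PND 17 (adjusted p = 0.0246). Prss46 was 2.99 ± 0.40 higher at PND 21 (adjusted p = 0.00303) and a further 1.59 ± 0.35 at PND 28 (adjusted p = 0.0207, edgeR). The step of Prss43 to PND 21 and that of Prss46 to PND 28 were each lost without any 1 of the 4 mice compared, and the latter also with library totals. The step of Prss46 to PND 21 held without any 1 mouse. Prss42 was called in no single step, and over PND 7 to PND 28 it was 4.78 ± 0.82 higher (adjusted p = 0.000471), or 3.88 higher without PND 7 mouse 2, with all its PND 7 counts in mouse 1.

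Prss50, at the end of the cluster, had another course. It encodes a testis-specific member that carries threonine in place of the serine. It measured 8.74 and 8.64 RPKM at PND 7, 60.3 and 20.3 at PND 14, 22.0 and 23.0 at PND 17, 15.6 and 17.0 at PND 21, and 6.63 and 3.66 at PND 28. Its highest value was in PND 14 mouse 1, while mouse 2 lay below both PND 17 mice, and its lowest values were at PND 28. From PND 7 to PND 14 it was 2.08 ± 0.44 higher (log2; adjusted p = 0.00769, edgeR), a call lost without PND 14 mouse 1 (1.14, adjusted p = 0.060). Spermatogonia and Sertoli markers in that mouse summed to 437.3 and 712.7 RPKM, against 414.6 and 365.7 in mouse 2, and their part in the Prss50 value was not tested. The difference from PND 21 to PND 28 measured -1.42 ± 0.46 and missed the threshold (adjusted p = 0.0854). Over the span PND 7 to PND 28 the difference was -0.41 ± 0.45 (adjusted p = 0.452).

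**Figure D4:**
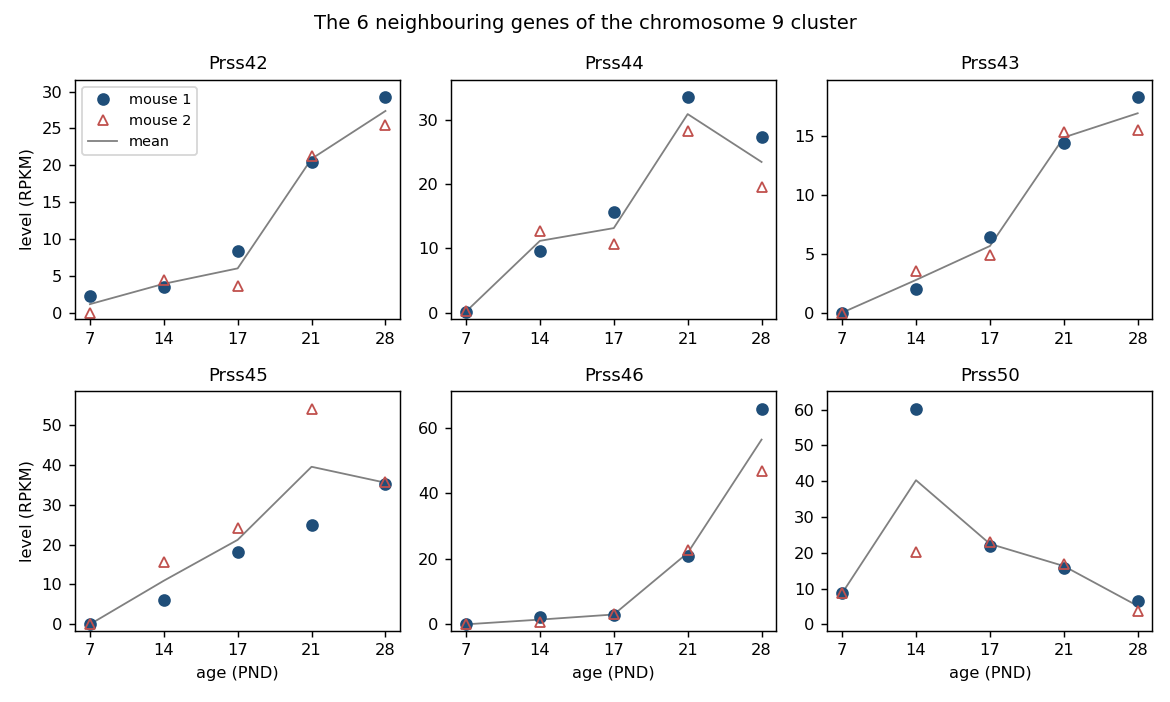
Level in RPKM against age for the 6 genes of the chromosome 9 cluster in their order along the chromosome, with 1 symbol for each mouse and a line through the mean of the 2 mice. Prss46 is highest at PND 28 (65.9 and 46.9 RPKM). Prss44 and Prss45 have their highest mean RPKM at PND 21, and neither was called between PND 21 and PND 28. Prss50 is at 60.3 RPKM in PND 14 mouse 1 but 20.3 in mouse 2, below both PND 17 mice.

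Prss38, Prss47 and Prss48 lie outside the clusters and stayed at 10.0 RPKM or below. Prss47 had no count at PND 7 and measured 2.09 and 0.99 RPKM at PND 14, 2.70 and 1.18 at PND 17, 5.49 and 8.38 at PND 21, and 10.0 and 7.24 at PND 28. Prss48 had no count at PND 7 and measured 1.51 and 3.94 RPKM at PND 14, 4.17 and 1.63 at PND 17, 4.26 and 5.83 at PND 21, and 8.11 and 5.41 at PND 28. Prss38 measured 1.01 and 0 RPKM at PND 7, 2.21 and 3.36 at PND 14, 4.41 and 2.27 at PND 17, 3.86 and 4.84 at PND 21, and 6.47 and 4.61 at PND 28. All 3 were low and spread widely between mice of an age. Prss47 was at least 6.77-fold higher at PND 14 than at PND 7 (adjusted p = 0.0102, edgeR) and Prss48 at least 13.4-fold (adjusted p = 0.006), or at least 7.03-fold by its lower PND 14 mouse, mouse 1. Prss38 was called over PND 7 to PND 28 (3.74 ± 0.87 on the log2 scale, adjusted p = 0.00327), with 2.88 without PND 7 mouse 2, and all its PND 7 counts came from mouse 1. Of its exon bases, 163 of 1243 overlap Gm15755 on the other strand.

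Prss35, Prss12 and Prss36 were called lower over the span, Prss36 in 13 of 22 settings. Prss35 encodes a secreted protein without the serine that is best known from the ovary. It measured 128 and 126 RPKM at PND 7, 101 and 91.7 at PND 14, 67.6 and 57.3 at PND 17, 38.9 and 73.2 at PND 21, and 26.1 and 17.1 at PND 28. It had the highest RPKM of all members in every mouse up to PND 21, and its mice did not overlap between successive ages except between PND 17 and PND 21. From PND 7 to PND 28 it fell by 2.22 on the log2 scale (SE 0.34, adjusted p = 0.000239, edgeR), and no single step was called (adjusted p = 0.0561 from PND 21 to PND 28). Sertoli markers were also lower at the last age, with 7 of 8 called lower over the same span (23.4% of all genes tested). They summed to 577.5 to 698.3 RPKM at PND 7 and 129.8 to 171.2 at PND 28. In between they did not fall in the same order, at 712.7 and 365.7 RPKM at PND 14 and 355.0 and 497.7 at PND 17. Peritubular myoid markers also ran lower, with 3 of 5 called, and spermatogonia markers with 5 of 7. The part of any of these cell types in the Prss35 values was not tested.

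Prss12 encodes neurotrypsin, a protease studied in the brain that cleaves agrin. It measured 5.07 and 3.64 RPKM at PND 7, 2.35 and 3.92 at PND 14, 1.93 and 1.97 at PND 17, 0.48 and 0.56 at PND 21, and 0.04 and 0.15 at PND 28. Both PND 28 mice were below all others. With 193 counts over both PND 7 mice and 3 over both PND 28 mice, the ratio of PND 28 to PND 7 was 0.0232 with a 95% counting interval of 0.00475 to 0.0689 (adjusted p = 7.66e-05, edgeR). The log2 difference ran from -6.13 to -4.49 over the left-out mice and was called each time. Prss36 encodes a polyserase, with several protease domains in 1 chain. It measured 2.08 and 1.91 RPKM at PND 7, 2.35 and 1.03 at PND 14, 1.61 and 2.23 at PND 17, 0.55 and 0.71 at PND 21, and 0.36 and 0.74 at PND 28. Its mice fell into a higher level up to PND 17 and a lower one after it. The change from PND 7 to PND 28 was -1.61 ± 0.58 (adjusted p = 0.0312, edgeR). The call was lost without PND 7 mouse 1, PND 17 mouse 2 or PND 28 mouse 1, with DESeq2, with only the 4 mice compared, with PND 7 barcode a only, in 2 limma fits and by the study's criteria on RPKM.

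**Figure D5:**
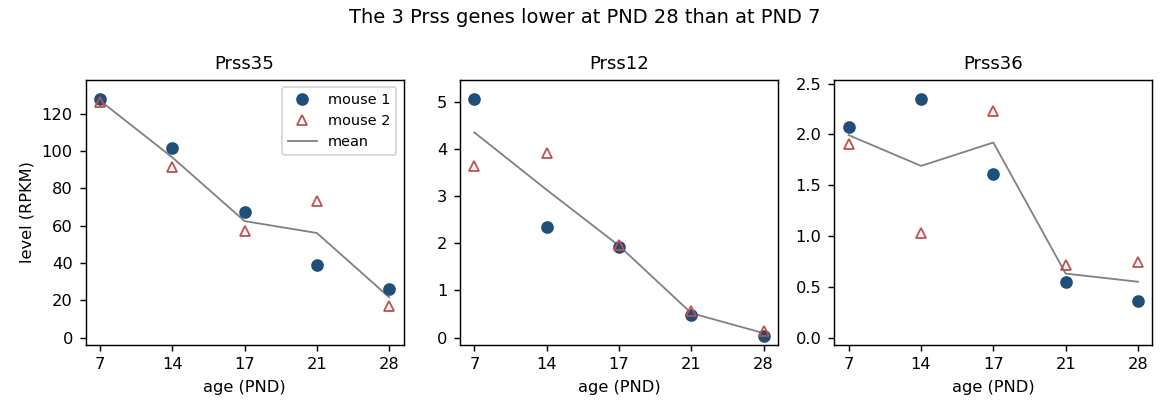
Level in RPKM against age for Prss35, Prss12 and Prss36, with 1 symbol for each mouse and a line through the mean of the 2 mice. At PND 28 the 2 mice of each gene lie below both PND 7 mice, at 26.1 and 17.1 RPKM for Prss35.

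The other 17 members stayed under a mean of 5 RPKM and were not called in the edgeR test as described. No count in any mouse was listed for 6 of them. These were the pancreatic trypsin genes Prss1, Prss2 and Prss3, the uterine implantation proteases Prss28 and Prss29, and Prss30. Only uniquely placed reads were counted, so reads shared by the alike trypsin genes could be missed. The 11 with counts were Prss8, Prss16, Prss22, Prss23, Prss27, Prss32, Prss33, Prss34, Prss41, Prss53 and Prss57, of which 5 (Prss22, Prss27, Prss32, Prss34, Prss57) had at most 3 counts over all mice.

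Of these, Prss23 was the highest, between 0.70 and 5.58 RPKM with no order over ages. Prss8, which encodes prostasin of epithelia, and Prss16, a protease of the thymus from another enzyme fold, had their highest value in PND 7 mouse 2, at 2.99 and 2.78 RPKM, against 0 and 0.46 in PND 7 mouse 1. That mouse is one of the libraries with epididymis markers, at a summed 169.7 RPKM. In PND 17 mouse 1, the other one, Prss8 measured 0.99 RPKM and Prss16 0.25. The part of epididymis tissue in these values was not tested. Prss16 had 55 counts over both PND 7 mice and 0 over both PND 28 mice, and did not pass the filter on low counts of the edgeR test. It was called lower from PND 7 to PND 28 by DESeq2, by limma on log2(RPKM + 1) and when the filter was loosened or dropped. Prss53 shares 76.7% of its exon bases with Vkorc1 on the same strand, so its 42 counts over all mice are uncertain. Mast cell markers, listed since Prss34 is a protease of those cells, summed to at most 5.81 RPKM in any mouse.

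Other genes of the pathway gave a wider picture, from lists that hold no Prss gene. Of 78 other trypsin-like serine proteases 25 were tested. Over PND 7 to PND 28, 9 were called higher (32.2% of all genes tested) and 6 lower (23.4%). The 25 had a median log2 difference of -0.25, against 0.10 over all genes tested. Acr, the acrosomal protease acrosin, measured 0.52 and 0 RPKM at PND 7, 9.56 and 8.24 at PND 14, 10.5 and 8.72 at PND 17, 59.3 and 25.5 at PND 21, and 57.8 and 61.5 at PND 28. At PND 28, both mice had more RPKM for Prss37 and Prss39 than for Acr.

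Of 51 serine protease inhibitor genes 32 were tested. Over the same span 7 were called higher (32.2% of all genes tested) and 10 lower (23.4%). From PND 7 to PND 14, 6 were called higher (13.5%) and 2 lower (5.43%). Of 32 acrosome genes, all tested, 21 were called higher from PND 7 to PND 14 (13.5% of all genes tested) and 0 from PND 14 to PND 17 (0%). From PND 17 to PND 21, 28 were called higher (9.29%), and 13 from PND 21 to PND 28 (7.37%). None was called lower in any of these steps.

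Motif shares in the members' promoters were set beside those of all promoters. RefSeq promoters of build GRCm38.p6, 250 bases before to 50 after the start, were matched by symbol for 28 members. The cAMP response element TGACGTCA was in 0 of 28 (1.79% of all 32851 promoters), and TGACG, the start of the same element, in 4, or 14.3% (20.8% of all). The MYB motif CAGTTG was in 4, or 14.3% (13.7%), and the RFX half-site GTTGCC in 3, or 10.7% (12.5%), in Prss21, Prss46 and Prss47. TATAAA was in 5, or 17.9% (13.6%), and these were Prss1, Prss2, Prss3, Prss28 and Prss29, all without a count in the testis. All motifs were searched on both strands.

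The promoters of Prss46 (chr9:110844256-110844555) and Prss50 (chr9:110857714-110858013) are shown as neighbours on 1 strand that were the highest and the lowest of their cluster at PND 28, and that of Prss21 (chr17:23867822-23868121) since GTTGCC occurs at 2 places in it. Capitals mark GTTGCC on either strand, and Prss50 has none of the motifs.
Prss46: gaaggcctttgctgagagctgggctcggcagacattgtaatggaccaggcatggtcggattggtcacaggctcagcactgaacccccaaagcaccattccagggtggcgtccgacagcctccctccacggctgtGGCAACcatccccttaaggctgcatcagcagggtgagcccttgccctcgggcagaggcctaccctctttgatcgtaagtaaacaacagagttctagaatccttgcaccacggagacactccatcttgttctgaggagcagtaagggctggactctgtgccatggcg
Prss50: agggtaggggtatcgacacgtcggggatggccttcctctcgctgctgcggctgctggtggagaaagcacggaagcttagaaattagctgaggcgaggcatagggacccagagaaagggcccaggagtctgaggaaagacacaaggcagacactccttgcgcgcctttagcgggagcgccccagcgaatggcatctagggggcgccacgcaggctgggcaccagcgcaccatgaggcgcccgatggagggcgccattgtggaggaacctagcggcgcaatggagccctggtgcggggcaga
Prss21: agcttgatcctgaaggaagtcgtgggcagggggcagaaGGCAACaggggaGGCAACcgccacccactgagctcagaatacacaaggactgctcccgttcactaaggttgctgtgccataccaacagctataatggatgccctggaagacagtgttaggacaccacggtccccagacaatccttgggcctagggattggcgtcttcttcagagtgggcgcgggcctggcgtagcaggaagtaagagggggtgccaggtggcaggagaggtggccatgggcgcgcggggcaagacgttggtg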

How the data were processed

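Per the labels and the study's methods, total RNA of whole testis was depleted of ribosomal RNA, sequenced as 50-base SOLiD 4 reads and aligned to mm9 by the authors with LifeScope v2.1. The authors deposited raw read counts per Ensembl gene, from uniquely placed reads, and RPKM values, which divide counts by exon length and mapped reads. Whether strand was used in counting is not given in the sources used here. Symbols came from GENCODE M1, whose coordinates match the files. The members and gene lists were chosen with earlier results of these data known. Members at 5 RPKM or called in a comparison are given for every mouse. For the 2 barcodes of a PND 7 mouse, counts were summed and RPKM averaged.

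Counts were tested with edgeR 4.0.16 (TMM scaling, filterByExpr, quasi-likelihood, Benjamini-Hochberg adjustment) in R 4.3.3, with DESeq2 1.42.0 and limma 3.58.1 as alternatives. On counts simulated for PND 21 against PND 28, 149 of 200 genes changed 4-fold were recovered among 16860 genes, with 7 unchanged genes called. The simulation gave every gene the same spread, changed only these genes and only at PND 28, and held no library that stood apart. Its figures are therefore not error rates of the real comparison. With 2 mice a group an exact permutation test cannot reach 0.05. Coding sequences were aligned as proteins with MAFFT 7.526, leaving out Prss16, which has another fold, and Prss47, without a whole coding sequence.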

Additional observations from a re-analysis of the deposited data

How the results depend on the processing

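Over 22 settings, 185 of 220 counts of called members stayed within 1.5 times their reported value. A count reported as 0 met this only by staying 0, and such counts are among the 185. Of 2287 single-gene results, 2132 kept their side of the threshold, 91 lost it and 64 passed it. Direction was compared only where the gene was called in either setting, and 0 of those reversed. Changes of direction in genes called in neither setting were not counted. From PND 7 to PND 14 (11 higher) the count was 19 with no filter on low counts, 5 with only the 4 mice compared, 6 with limma on log2(RPKM + 1) and 3 with the study's criteria on RPKM. From PND 14 to PND 17 (0 and 0) no filter gave 1 higher and 2 lower. From PND 17 to PND 21 limma on log2(RPKM + 0.1) gave 4 higher in place of 7, and no filter gave 2 lower and the 4 mice compared 1 lower in place of 0. From PND 21 to PND 28, scaling by library totals gave 5 higher and limma on log2(RPKM + 0.1) 3 in place of 8. In that step 1 member was called lower in place of 0 with DESeq2, library totals, PND 7 barcode a only, limma on log2(RPKM + 1), limma with at least 1 RPKM in 2 mice and the study's criteria, each time Prss35, and 2 (Prss35 and Prss50) with no filter and with the 4 mice compared. From PND 7 to PND 28 (3 lower) no filter gave 5 lower and the study's criteria 1. The causes were not tested.

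Leaving out 1 mouse, where the lone mouse of an age is assumed to vary like the others, gave 7 to 16 higher and 0 to 2 lower from PND 7 to PND 14, 0 to 1 lower from PND 14 to PND 17, 3 to 9 higher from PND 17 to PND 21, 2 to 9 higher and 0 to 1 lower from PND 21 to PND 28, and 2 to 4 lower from PND 7 to PND 28. The labels give no pairing of samples by mouse number. Between ages, the deviations of mouse 1 from the mean of its age correlated at -0.17 to 0.343. The highest value was for PND 14 with PND 21, and its cause was not tested. With the mouse number as a replicate block 12 members were called higher from PND 7 to PND 14, with Prss58 gained. Scaling by library totals moved the median log2 difference of all genes by -0.32 from PND 7 to PND 28, by -0.22 from PND 21 to PND 28 and by -0.10 from PND 17 to PND 21, and relative log expression scaling by 0.16 and 0.10 in the first and last of these. With 2 mice an age, many members under about 5 RPKM rest on few counts, but not all do. Prss23 and Prss41, under a mean of 5 RPKM at every age, had 604 and 448 counts over all mice.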
